A study of Mus musculus with 4 samples.

Results

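The giant and cross-linking proteins of the sarcomere, titin (Ttn), obscurin-like 1 (Obsl1), nebulin (Neb), nebulette (Nebl), the nebulin-related anchoring protein (Nrap), the myomesins (Myom1, Myom2 and Myom3) and cardiac myosin binding protein C (Mybpc3), were examined for acetylation of histone H3 at lysine 27 (H3K27ac) in mouse heart. The 9 genes were chosen by name. Their peaks are all those in the deposited list of replicated peaks that touch a gene of GENCODE release M21 (build mm10) or the 50 kb on either side of it, 117 of the 63061 peaks in that list. Peaks within 1 kb of the 5' end of a gene record are kept apart from peaks at internal transcription start sites (TSSs). The hearts came from female B6CASTF1/J mice, hybrids of C57BL/6J and CAST/EiJ, at 2 months of age. Chromatin immunoprecipitation and sequencing gave 4 libraries, from 2 biological replicates sequenced as 2 technical replicates each. A biological replicate, called a pool here, combines 2 heart samples. Both pools carry 1 donor identifier in the labels, so the spread between them may be technical. The series has 1 group, with no treated or mutant animals and no second tissue.

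In the sarcomere, actin filaments are anchored at the Z-disc and myosin filaments are held together at the M-band. Titin runs from one structure to the other as a molecular spring, myomesins and obscurin relatives tie titin and myosin together at the M-band, nebulin and its relatives line or anchor actin filaments, and myosin binding protein C sits on the thick filament and tunes contraction. H3K27ac is laid down by the acetyltransferases p300 and CBP at active promoters and enhancers, and in heart muscle the genes of the contractile apparatus are among its known carriers.

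Acetylation was present at most of these genes, but the places it occupied differed from gene to gene. A peak lay at the 5' end of 7 of the 9 genes, against 53.3% of the 21938 protein-coding genes. The same 7 genes had one in the lists of both single pools, where the share among all genes was 51.4%. Neb and Myom3 had no peak at the 5' end in any of the 4 deposited lists. Of the 8 genes with an annotated internal TSS, 6 had a peak at one (Ttn, Nebl, Nrap, Myom1, Myom2 and Myom3), against 22.7% of all genes with such a site. The peak of Ttn was weak, with fold 1.89 and −log10 q of 0.496. In pool 2 Myom2 had no internal peak apart from those at its 5' end. Ttn has 14 internal sites, and Neb and Nebl have 11 each. A gene with more sites has more chances of a peak, and the shares were not adjusted for this. Myom3 alone had an internal peak and none at the 5' end, a state found in 3.55% of all genes. When the start of any transcript of the annotation's basic set was accepted, 7 of 9 genes had a peak, against 55.7% of all genes. The genes were chosen with earlier results known and no test was made of these shares.

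**Figure D1:**
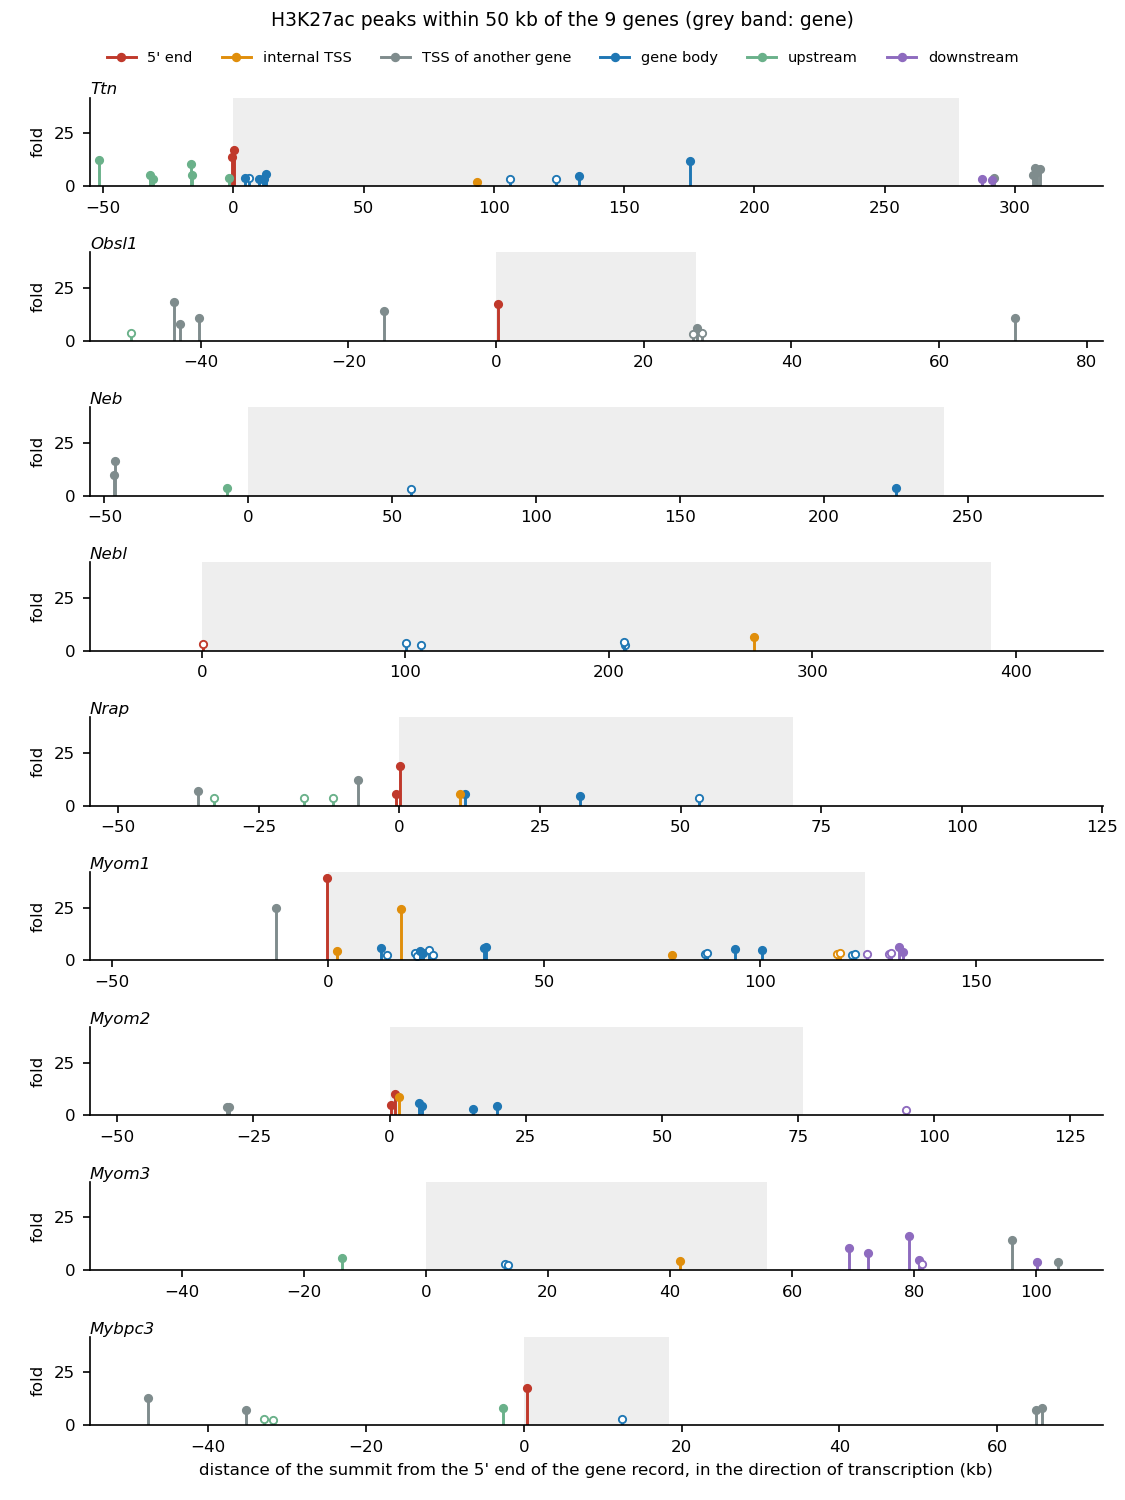
Peaks of the replicated list around the 9 genes, placed by the distance of the summit from the 5' end (x axis, kb) with the deposited fold as height (y axis, ratio). Filled points were found in the lists of both pools and open points were not. Colours give the place of the peak. The tallest point is the peak of fold 39.1 at the 5' end of Myom1, and Neb holds 2 low peaks in its body.

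Acetylated length, the length covered by peaks in the gene and 50 kb on both sides, had a median of 9.89 kb over the 9 genes and 4.32 kb over all protein-coding genes. Myom1 had the longest, 34.4 kb in the replicated list, 27.8 kb in pool 1 and 38.1 kb in pool 2. Ttn followed with 24.9 kb, and 19.0 kb and 33.7 kb in the pools. These lengths stood at the 98.4 and 95.4 percentiles of all genes, and the ranges of the 2 genes over the pools overlapped each other but no range of the other 7. Both lengths count peaks at starts of other genes. For Myom1 these are a peak of 11716 bp shared with Myl12a and Myl12b, and 1 of 2799 bp at Myl12b. For Ttn they are 5 peaks at Fkbp7 and Plekha3. The order of the 2 genes without such peaks was not computed. Other genes have them too, among them Obsl1 (8 of its 10 peaks), whose length is the median of 9.89 kb. At Mybpc3 they were 4 of 9 peaks. At Neb they were 2 of 5, the widest in its window, with 1637 bp and 912 bp. Nrap (2 of 11), Myom2 (2 of 10) and Myom3 (2 of 12) had fewer, and Nebl had none. The lengths of all protein-coding genes count such peaks in the same way. Myom3 (11.7 kb), Mybpc3 (11.5 kb), Obsl1 (9.89 kb), Myom2 (9.59 kb) and Nrap (9.47 kb) lay close together, and their ranges over the 2 pools overlapped. Nebl had 4.01 kb and Neb 3.97 kb, about the median of all genes. In pool 1 both were under that pool's median of 3.54 kb, with 1.77 kb for Nebl and 2.55 kb for Neb. In pool 2, with a median of 5.28 kb, Nebl had 5.73 kb and Neb 5.16 kb, under the lowest pool value of each of the other genes, which was 7.35 kb at Myom2. All 9 genes were longer in pool 2, by ratios from 1.37 for Myom1 to 3.23 for Nebl, and the whole list of pool 2 covered 1.49 times the length of pool 1.

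**Figure D2:**
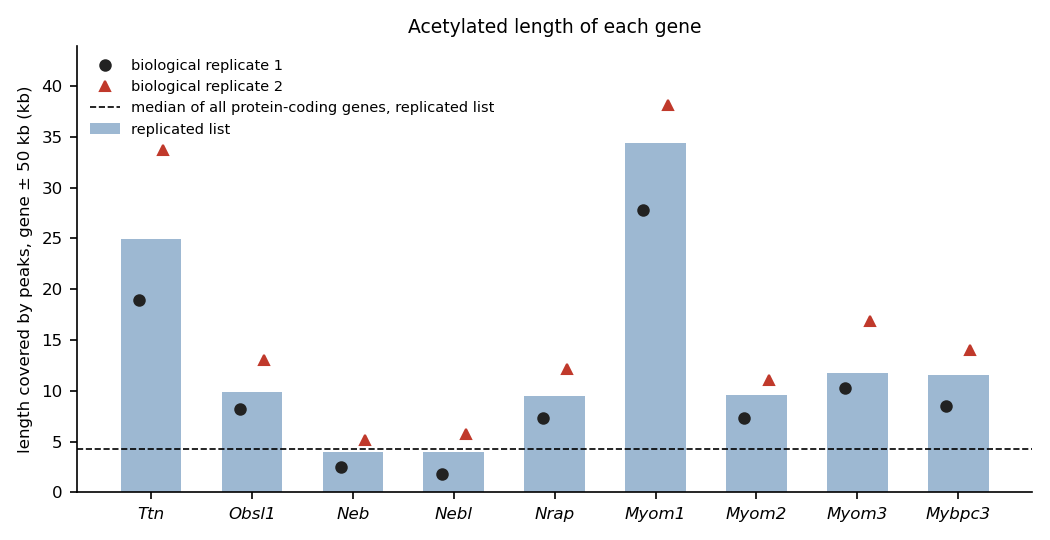
Acetylated length of each gene (y axis, kb) in the replicated list (bars), in biological replicate 1 (circles) and in biological replicate 2 (triangles), with the median of all protein-coding genes in the replicated list, 4.32 kb, as a dashed line. The points of Myom1 and Ttn lie above those of the other genes, and the bars of Neb and Nebl end near the line.

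Since the windows of long genes are wider, the share of the gene body covered by peaks puts the genes in another order. It was 15.7% for Mybpc3 and 13.6% for Myom1, then 9.36% for Myom2, 7.05% for Obsl1, 6.81% for Nrap and 5.08% for Ttn. Myom3, at 1.92%, was at the median of all genes, 1.91%. Nebl had 1.04% and Neb 0.473%.

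Ttn lies on the minus strand of chromosome 2 (chr2:76703980-76982547), and its longest transcripts by span begin at or within 92 bp of the 5' end. There the replicated list has a peak of 2973 bp and fold 17.3, whose summit is 212 bp inside the gene, and a second of 1354 bp and fold 13.5 on the upstream side. Fold here is the deposited ratio of signal over control for a peak, and it ranks peaks within 1 list only. Pool 1 also had a pair of peaks there, the stronger of 2913 bp, and pool 2 had 1 peak of 4703 bp. Together with smaller peaks in the first introns and just upstream they make a region of 9 peaks and 11.0 kb of covered length when peaks within 12.5 kb are joined, rank 1176 of 20739 such regions. A further 5 peaks stand upstream, from 15.8 kb to 51.6 kb before the start, and each was found in both pools. The outermost, 2877 bp wide with fold 12.3, reaches over the edge of the 50 kb window. The window reaches into Ccdc141, whose own start lies 188 kb upstream and has a peak of 3.01 kb.

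Far inside Ttn, 175 kb from the 5' end, stood a peak of 3127 bp and fold 11.7, wider than 95.3% and stronger than 85.4% of the list. Both pools had it, with 1769 bp and fold 10.3 in pool 1 and 4020 bp and fold 13.9 in pool 2. It overlaps exons 187 to 189 of the 313 exons of the transcript Ttn-205, and its summit falls in exon 189. The nearest annotated Ttn start of any kind in GENCODE is 17.9 kb away and the nearest RefSeq start 174 kb, so it was counted as a peak of the gene body. Another exonic peak, 1053 bp with fold 4.78, lay 133 kb from the start over exons 133 to 135 and was also in both pools. The 14 internal TSSs annotated in Ttn carried 1 peak apart from the 5' peak, of 334 bp and fold 1.89, near the starts of Ttn-218 and Ttn-214. From 177 kb to the last base of the gene, over 101 kb, no peak was found.

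The sequence at these places is shown for Ttn, first the 250 bases before the RefSeq start, which cover the gap between the pair of 5' peaks (GRCm38.p6, chr2:76982548-76982797, minus strand, from RefSeq), then the 200 bases around the summit of the exonic peak (mm10, chr2:76807029-76807228, minus strand). Capitals mark every match to 1 of 9 motifs sought on both strands. MEF2 and CArG, the box bound by serum response factor, were sought by their consensus. GATA factors were sought as AGATAA and the TEAD factors of the Hippo pathway as GGAATG. The homeobox factor NKX2-5 was sought as TNAAGTG, estrogen-related receptors (ERR) as AAGGTCA, and the T-box factor TBX5 as AGGTGT. The E-box of myogenic helix-loop-helix factors was sought as CAGCTG, and AP-1 as TGANTCA. Overlapping matches of different motifs were counted for each. A match on the other strand appears as its reverse complement.
Ttn promoter: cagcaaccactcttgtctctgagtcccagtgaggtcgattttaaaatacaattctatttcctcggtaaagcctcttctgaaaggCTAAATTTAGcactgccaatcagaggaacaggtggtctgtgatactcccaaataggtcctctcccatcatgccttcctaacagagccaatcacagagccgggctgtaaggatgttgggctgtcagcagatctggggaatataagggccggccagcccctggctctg
Ttn exonic summit: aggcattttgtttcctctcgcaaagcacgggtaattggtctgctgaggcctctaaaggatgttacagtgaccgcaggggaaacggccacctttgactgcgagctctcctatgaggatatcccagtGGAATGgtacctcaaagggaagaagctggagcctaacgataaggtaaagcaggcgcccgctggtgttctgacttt
The promoter holds a MEF2 match at bases 85 to 94, counted from the 5' end of the printed run. Such a match stands in the same 250 bases of 2.92% of the 32851 promoters of the RefSeq table. The exonic sequence holds a TEAD match at bases 126 to 131, found in 10.5% of the 200-base windows around all summits of the list. The summit window was picked among those that hold at least 1 match, so a match in it was certain. The share of all windows therefore does not show how unusual it is. Matches describe letters and do not show binding.

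Obsl1, the obscurin relative that links titin to myomesin at the M-band, lies on chromosome 1 (chr1:75479310-75506452, minus strand). Its 5' peak was 1780 bp wide with fold 17.3 in the replicated list, 1742 bp in pool 1 and 1905 bp in pool 2, a narrow spread. The start of Inha, an inhibin subunit gene, lies 0.625 kb upstream under the same peak, so the acetylation cannot be assigned to 1 of the 2 promoters. The gene body held no other peak until its far end, where 3 peaks with folds from 3.13 to 6.34 sit at the starts of Chpf and Tmem198. Of the 10 peaks in the window, 8 were at starts of other genes alone: Gmppa, Chpf, Tmem198, Stk11ip and Slc4a3, the last a chloride-bicarbonate exchanger with peaks of fold up to 18.3. Speg, a muscle kinase gene that also reaches into the window, had a 5' peak of 1981 bp and fold 19.0 at its own start 131 kb away. None of the 8 internal TSSs of Obsl1 outside the 5' peak carried 1.

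The 3 genes of the nebulin family among the 9 differed in where acetylation stood. Neb, the ruler of thin filaments in skeletal muscle, lies on chromosome 2 (chr2:52136647-52378474, minus strand). It had 5 peaks in its window and 2 in a body of 242 kb, 0.827 per 100 kb. One, of 427 bp with fold 3.88 in both pools, lies in intron 147 of the 157-exon transcript Neb-202. The other, of 717 bp with fold 3.32 in intron 9, was found in pool 2 only. The long coding transcripts Neb-202 and Neb-203 start 39.7 kb and 43.3 kb inside the gene record, and none of the 12 TSSs had a peak within 1 kb in any of the replicated or single-pool lists. RefSeq starts at 39.7 kb and 42.7 kb had none either. The strongest peaks of the window, with folds of 16.4 and 9.77, stand 46 kb upstream at Arl5a, a small GTPase gene. Rif1, a replication timing factor whose gene enters the window from the other side, had a 5' peak of 858 bp.

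Nebl lies on chromosome 2 as well (chr2:17343909-17731464, minus strand) and spans 388 kb. It encodes nebulette, which sits at the cardiac Z-disc, and a shorter LIM protein, LASP2, from a start far upstream. The transcript from the far upstream start, Nebl-201 with 270 codons, had a peak of 222 bp and fold 3.24 at its 5' end, narrower than nearly all 5' peaks of the list (0.428 percentile). Pool 1 had 213 bp and pool 2 487 bp near that start, although the peak of pool 1 did not overlap the replicated one. The transcript Nebl-202, with 1014 codons and 28 exons, starts 271 kb inside the record. There the peak was 1977 bp wide with fold 6.67, 1559 bp and fold 6.93 in pool 1 and 2389 bp and fold 8.73 in pool 2. The internal start was thus the broader and stronger of the 2 in each list. Starts of Nebl-206 and Nebl-207 at 269 kb, of Nebl-203 at 201 kb and of Nebl-213 at 340 kb had no peak within 1 kb. RefSeq starts at 61.3 kb, 203 kb, 205 kb and 269 kb had none either. The peak at the start of Nebl-202 thus rests on a GENCODE start without a RefSeq start within 1 kb of it. Of the other 4 peaks in the gene, with folds from 2.70 to 4.17, none was in both pools. No protein-coding neighbour had a start in the window.

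Nrap joins actin filaments to the intercalated disc. The gene (chr19:56320035-56390037, minus strand) had a 5' peak of 2324 bp and fold 18.6, with 2339 bp in pool 1 and 3075 bp in pool 2, and a second of 653 bp and fold 5.50 just upstream. An internal peak of 739 bp and fold 5.59 stood 10.9 kb inside, near the start of Nrap-206, an RNA annotated as subject to nonsense-mediated decay, and an intronic one of 1043 bp and fold 4.64 stood 32.1 kb inside. All 4 were in both pools.

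To show the letters at acetylated starts of this family, the promoter of Nrap (GRCm38.p6, chr19:56390039-56390288, minus strand, from RefSeq) is printed with the 200 bases at the summit of the internal Nebl peak (mm10, chr2:17460208-17460407, minus strand). The table has no entry for Neb or Myom2.
Nrap promoter: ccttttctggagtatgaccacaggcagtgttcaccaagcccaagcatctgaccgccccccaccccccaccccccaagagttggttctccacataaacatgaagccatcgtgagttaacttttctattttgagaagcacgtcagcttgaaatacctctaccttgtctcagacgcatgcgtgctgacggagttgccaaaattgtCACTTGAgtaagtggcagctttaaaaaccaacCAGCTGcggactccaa
Nebl internal summit: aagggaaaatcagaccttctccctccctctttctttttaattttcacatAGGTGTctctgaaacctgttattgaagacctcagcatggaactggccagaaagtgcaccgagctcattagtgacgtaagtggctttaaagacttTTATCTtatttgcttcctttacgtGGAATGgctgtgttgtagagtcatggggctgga
The Nrap promoter holds an NKX2-5 match at bases 203 to 209, present in 10.1% of all promoters, and an E-box at bases 235 to 240, present in 13.0%. The Nebl summit holds TBX5 at bases 50 to 55, GATA at 144 to 149 and TEAD at 168 to 173, which stand in 9.69%, 8.55% and 10.5% of all summit windows. The Nebl window was picked among those that hold at least 1 match, so these shares do not show how unusual its matches are.

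**Figure D3:**
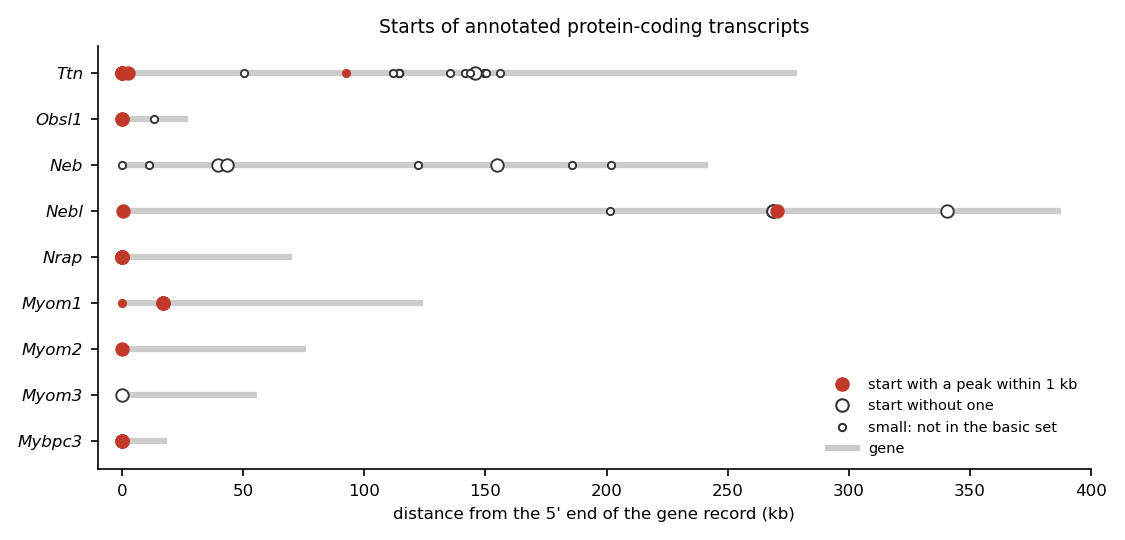
Starts of the annotated protein-coding transcripts of each gene by distance from the 5' end (x axis, kb). Filled circles have a replicated peak within 1 kb and open circles have none, and small circles are transcripts outside the basic set. The row of Neb has open circles only, and in Nebl the start at 271 kb is filled.

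Myomesin 1 (Myom1, chr17:71002633-71126856, plus strand), the cross-linker present in all striated muscle, had 28 peaks in its window, the most of the 9 genes. The peak at the start of its gene record was 11716 bp wide with fold 39.1, 11622 bp and fold 33.2 in pool 1 and 12487 bp and fold 45.2 in pool 2. Its width lay at the 99.9 percentile of 5' peaks. That peak also covers the starts of Myl12a and of 1 of the 2 Myl12b gene records, genes for regulatory light chains of non-muscle myosin, which begin 0.245 kb inside and 0.425 kb before the Myom1 record. Its summit lies 278 bp before the Myom1 record, and the acetylation cannot be assigned to 1 of these promoters. The transcript that begins there, Myom1-209, has 8 exons and 233 codons.

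The long coding transcripts of Myom1, Myom1-201, Myom1-202 and Myom1-203, begin 16.9 kb inside the record. They had a peak of their own, 3427 bp wide with fold 24.5, with 3415 bp in pool 1 and 3816 bp in pool 2, and no start of another gene lay within 1 kb of it. Of the 16 body peaks away from any start, 5 had a fold over 5, and all of these were in both pools. They lay 12.4 kb (fold 5.68), 36.1 kb (5.97), 36.6 kb (6.45), 94.3 kb (5.31) and 100 kb (5.09) inside the record. Beyond the 3' end, a peak of 2007 bp and fold 6.57 stood 132 kb from the 5' end. The region joined from the 2 starts covers 24.9 kb in 14 peaks, rank 243 of 20739, and includes the Myl12b peak of 2799 bp.

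Myomesin 2 (Myom2, chr8:15057653-15133541, plus strand), the M-protein, carried weaker acetylation at the start than just inside it. The peak over the start was 659 bp wide with fold 5.02 and summit at 202 bp. The strongest peak within 1 kb was 693 bp wide with fold 9.86 and summit at 950 bp, and a broad one of 3270 bp and fold 8.63 followed with its summit at 1.81 kb, near internal starts of non-coding transcripts. All 3 lie in or beside intron 1 of Myom2-201. Pool 1 had these as separate peaks (the strongest 640 bp with fold 7.83), and pool 2 joined the inner ones to 1 peak of 4193 bp and fold 12.5 beside one of 705 bp at the start. From 19.9 kb to the end of the gene at 75.9 kb there was no peak. The pair of upstream peaks at 29 kb to 30 kb, with folds of 3.99 and 3.70, stand at a TSS of Kbtbd11.

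Myomesin 3 (Myom3, chr4:135759715-135815564, plus strand), the form of slow and intermediate skeletal fibres, had 3 peaks in its body. The internal one, 577 bp with fold 4.24 in the replicated list, 533 bp in pool 1 and 918 bp in pool 2, lies 41.7 kb inside near the start of Myom3-202, a retained-intron RNA. The other 2, of 194 bp and 299 bp about 13 kb inside, were each found in 1 pool. The 5' end and the RefSeq starts at 0.915 kb and 0.337 kb before it and 21.4 kb after it had no peak within 1 kb. The acetylated length of 11.7 kb came mostly from sequence behind the gene, apart from a peak of 835 bp and fold 5.69 placed 13.8 kb upstream in both pools. Behind it, 3 peaks stood 69.3 kb, 72.4 kb and 79.2 kb from the 5' end, with widths of 1654 bp, 1474 bp and 2487 bp and folds of 10.3, 7.90 and 16.0, all in both pools and over 2.5 kb from any annotated TSS. Further on, the start of the splicing factor gene Srsf10 had a peak of 2688 bp and fold 14.2. Which gene the distal peaks act on was not tested.

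For the myomesins, the Myom2 sequence around the strongest 5' summit (mm10, chr8:15058503-15058702, plus strand), the Myom3 promoter without a peak (GRCm38.p6, chr4:135759465-135759714, plus strand, from RefSeq) and the Myom3 downstream summit (mm10, chr4:135838845-135839044, plus strand) are given.
Myom2 5' summit: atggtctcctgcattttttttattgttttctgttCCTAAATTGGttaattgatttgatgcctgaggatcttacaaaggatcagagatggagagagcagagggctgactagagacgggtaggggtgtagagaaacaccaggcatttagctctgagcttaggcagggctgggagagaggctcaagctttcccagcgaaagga
Myom3 promoter: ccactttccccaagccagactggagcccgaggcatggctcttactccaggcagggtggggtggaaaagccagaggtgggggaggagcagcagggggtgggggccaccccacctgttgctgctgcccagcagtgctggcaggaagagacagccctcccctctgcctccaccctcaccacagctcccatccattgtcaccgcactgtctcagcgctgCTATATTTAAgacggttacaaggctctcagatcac
Myom3 downstream summit: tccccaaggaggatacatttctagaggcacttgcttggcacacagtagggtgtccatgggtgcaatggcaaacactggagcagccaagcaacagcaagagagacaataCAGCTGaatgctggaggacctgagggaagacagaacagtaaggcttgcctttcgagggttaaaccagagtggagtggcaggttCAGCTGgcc
The Myom2 summit, in intron 1, holds a CArG match at bases 35 to 44, a motif in 0.864% of summit windows. The Myom3 promoter holds a MEF2 match at bases 216 to 225, beside a start that had no peak. The downstream summit holds E-boxes at bases 109 to 114 and 192 to 197, a motif in 12.5% of windows. Both summit windows were picked among those that hold at least 1 match, so these shares do not show how unusual the matches are.

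Mybpc3 encodes the cardiac form of myosin binding protein C, a frequent site of mutations in hypertrophic cardiomyopathy. The gene (chr2:91118144-91136516, plus strand) is the shortest of the 9, with 18.4 kb, and its single TSS was covered by a peak of 3519 bp and fold 17.7 that reached exon 5 of 35. Pool 2 had 1 peak of 3642 bp. In pool 1 the same stretch was split into 3 peaks of 735 bp, 638 bp and 964 bp, the middle one strongest with fold 14.8. A smaller peak of 418 bp and fold 7.96 stood 2.68 kb upstream in both pools. Behind the start, the rest of the body held 1 peak of 391 bp and fold 2.99, found in pool 2 only. Neighbours with a 5' peak were Slc39a13 and Spi1 upstream and Madd and Nr1h3 behind the gene, with folds from 7.30 to 12.6.

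The Mybpc3 promoter (GRCm38.p6, chr2:91117894-91118143, plus strand, from RefSeq) is set beside that of Obsl1 (GRCm38.p6, chr1:75506453-75506702, minus strand, from RefSeq), since their 5' peaks had nearly the same fold, 17.7 and 17.3.
Mybpc3 promoter: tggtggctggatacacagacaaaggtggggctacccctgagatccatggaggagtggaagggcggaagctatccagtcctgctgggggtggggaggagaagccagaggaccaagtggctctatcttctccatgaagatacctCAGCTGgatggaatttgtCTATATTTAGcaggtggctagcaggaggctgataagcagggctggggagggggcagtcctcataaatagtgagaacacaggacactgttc
Obsl1 promoter: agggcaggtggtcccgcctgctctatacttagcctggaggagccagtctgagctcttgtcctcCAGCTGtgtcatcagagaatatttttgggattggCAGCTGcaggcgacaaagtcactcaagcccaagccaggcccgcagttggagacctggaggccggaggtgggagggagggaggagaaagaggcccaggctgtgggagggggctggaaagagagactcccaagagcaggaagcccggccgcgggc
Mybpc3 has an E-box at bases 143 to 148 and a MEF2 match at 161 to 170. Obsl1 has E-boxes at 64 to 69 and 98 to 103 and no MEF2 match in these letters. The table holds 10 promoters for 7 of the genes, several of them of Nebl. In the 250 bases 3 had a MEF2 match (Ttn, Mybpc3 and Myom3), against 2.92% of all promoters. The E-box was in 3 (Obsl1, Mybpc3 and Nrap), against 13.0%. GATA was also in 3 (of Nebl and Myom1), against 9.99%, and CArG in 2 (of Nebl and Myom1), against 1.47%. Some of these starts had no peak within 1 kb. They were the Nebl starts with GATA, at 61.3 kb and 205 kb, the Nebl start with CArG, at 269 kb, and the Myom3 start. TEAD, NKX2-5 and TBX5 were in 1 each, and ERR and AP-1 in none. No test was made of these counts.

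Over the 7 genes with a 5' peak, the strongest one had a median width of 2.32 kb, and over all 11689 such genes the median was 1359 bp. Widths ran from 222 bp at Nebl to 11716 bp at Myom1, and folds from 3.24 to 39.1 about a median of 13.0 for all genes. The summit lay inside the gene in 6 of the 7, Myom1 being the other, and in 71.5% of all genes with a 5' peak. The summits of Ttn, Obsl1, Nrap and Mybpc3 stood 193 bp to 375 bp inside, and the median of all genes was 165 bp.

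**Figure D4:**
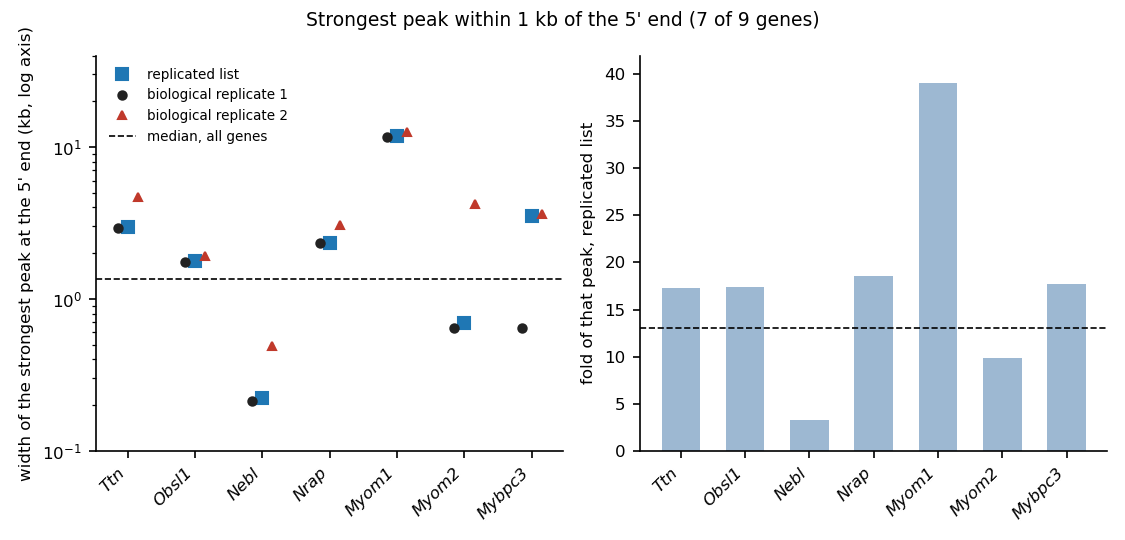
Width of the strongest peak within 1 kb of the 5' end (left, kb on a log axis) in 3 lists, and its deposited fold in the replicated list (right, ratio), for the 7 genes with such a peak. Dashed lines are medians over all genes with a 5' peak, 1359 bp and 13.0. Nebl lies lowest and Myom1 highest in both panels.

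Of the 117 peaks, 10 lay at 5' ends, 10 at internal TSSs, 26 at a TSS of another gene only, 42 elsewhere in the gene bodies, 15 upstream and 14 downstream. Median width and fold were 1567 bp and 15.4 at 5' ends, and 470 bp and 3.49 in gene bodies. Peaks at a TSS of another gene, counting the 2 shared 5' peaks, made up 23.9% (95% exact binomial interval 16.5% to 32.7%, which like all intervals here covers counting only). Both pools held 79 of the 117, or 67.5% (58.2% to 75.9%), and 73.0% of all peaks of the list. Of the rest, 23 were found in pool 2 only, 6 in pool 1 only and 9 in neither. Agreement followed strength. Of the 57 peaks at or over the median fold of the whole list, 56 were in both pools, and of the 60 weaker ones 23 were. By place, 9 of 10 peaks at 5' ends were in both, and 20 of 42 in gene bodies.

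Distal peaks, over 2.5 kb from any annotated TSS, numbered 62, or 53.0% (43.5% to 62.3%), against 59.1% of the list. In the 500 bp around their summits MEF2 was found in 10 (16.1%, 8.02% to 27.7%), and in 10.9% of all 37274 distal peaks. Myom1 held 5 of these 10, and 21 of the 62 distal peaks. The E-box stood in 25 (40.3%, 28.1% to 53.6%), and in 29.7% of all. GATA stood in 11 (17.7%, 9.20% to 29.5%), and in 25.6% of all. Shares of CArG, TEAD, NKX2-5, ERR, TBX5 and AP-1 were 4.84%, 30.6%, 25.8%, 12.9%, 24.2% and 16.1%, beside 2.85%, 27.7%, 26.0%, 12.1%, 22.4% and 17.4% of all. The share of all distal peaks lay inside the interval of the 62 peaks for each of the 9 motifs, and the median GC content was 46.1% in the 62 and 46.6% in all. Peaks of 1 gene are not independent of one another, so the intervals are likely too narrow.

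**Figure D5:**
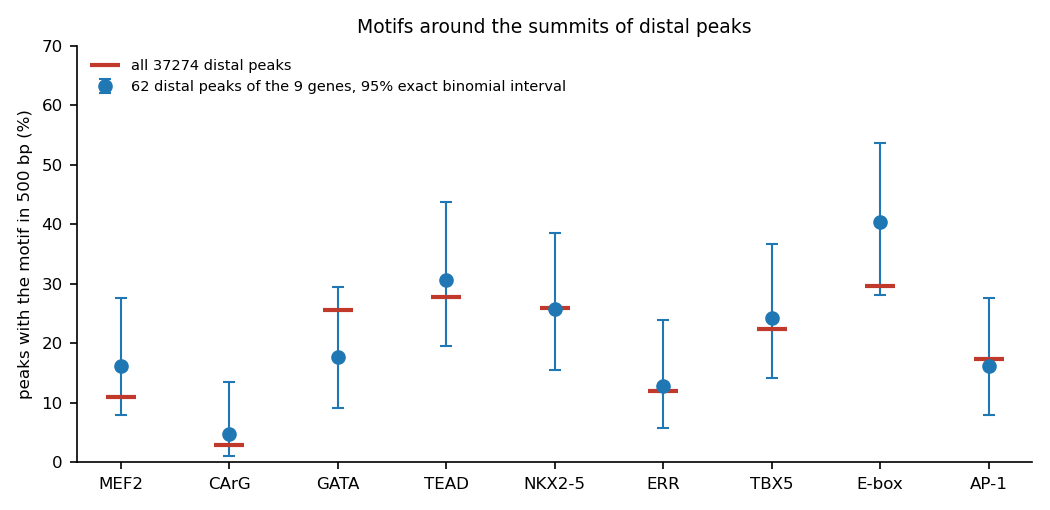
Share of distal peaks with each motif within 500 bp around the summit (y axis, percent), for the 62 distal peaks of the 9 genes (points with 95% exact binomial intervals) and for all 37274 distal peaks (red bars). Each red bar lies within the interval.

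Partners of these proteins were taken from a list of 50 genes for binders of titin and nebulin, relatives of the 9, and thick and thin filament proteins. A 5' peak was present at 43 of the 50 (86.0%), against 53.3% of all genes, and the median acetylated length was 13.7 kb. The widest were at Synpo2l (8.69 kb), Fhl2 (8.09 kb), Csrp3 (7.89 kb), Tpm1 (7.06 kb) and Rbm20 (6.95 kb), the last the splicing factor of titin. The 7 without were Capn3, Smyd1, Igfn1, Ckm, Mybpc1, Mybph and Myl3. Of these, Capn3, Smyd1, Ckm and Myl3 had a peak at an internal TSS. By pool, Myl3 had a 5' peak in pool 2 only, as did Mybphl, which is counted among the 43. Mybpc1, the slow skeletal relative of Mybpc3, had no peak at the 5' end or at an internal TSS. Mybpc2, the fast skeletal one, had a 5' peak of 1.01 kb with fold 7.39.

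The tissue label was set beside marker genes. These were chosen with earlier results known, so they are no independent check. Of all protein-coding genes, 53.3% had a 5' peak. All 10 cardiomyocyte markers had a 5' peak, with a median acetylated length of 23.8 kb. Of them, Myh6, Tnnt2, Actc1, Tnni3, Myl2 and Actn2 are also in the list of partners. Of 12 skeletal muscle markers, 1 had a 5' peak (Actn3, 0.474 kb wide), and 4 had no peak within 50 kb. Their median acetylated length was 1.18 kb, but Tnnt3 had 23.1 kb and Tnni2 25.5 kb. Of 6 smooth muscle markers 3 did (Smtn, Tagln and Acta2), and of 5 hepatocyte markers none did. Whole heart holds several cell types, and a weak peak in few cells and in all cells cannot be told apart in these lists. The part of smooth muscle and other cells in the peaks of the 9 genes was not tested.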

How the data were processed

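H3K27ac was measured in 4 heart libraries from 2 pools. The authors deposited 4 peak lists on mm10, joining technical replicates before calling: replicated peaks, pseudoreplicated peaks of both pools, and pseudoreplicated peaks of each pool. Per the deposited lists, each peak has a position, a score (not used), a fold, which is the authors' ratio over control as read from the column order of the format, −log10 p and −log10 q values, and a summit. Aligner and caller were not given in the sources used here. Read depth is unknown, and intervals are exact Clopper-Pearson at 95%.

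Peaks were assigned with Python 3.11.15, pandas 2.3.3 and pysam 0.24.0 to GENCODE M21 genes. Lists were compared by an overlap of 1 bp, the strongest peak at a 5' end was the one of highest fold, and gene counts cover protein-coding genes outside the mitochondrial chromosome. Assignment was tested on simulated data. Motifs were sought in GRCm38. The 2 pools allow no test, and none was made. The genes, the lists of partners and markers, and the motifs were chosen with earlier results of these data known. All 9 genes are described, neighbours are named where they have a 5' peak (1 is not reported here), and partners where they lack one or are among the 5 widest. Summit sequences come from the strongest peak of a gene that is not at another gene's TSS, lies outside annotated untranslated regions and holds a motif. Such windows were found for 7 genes, and the 4 printed were chosen after their values were seen. Hybrid reads on mm10 may be placed unevenly by strain, which was not tested.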

Additional observations from a re-analysis of the deposited data

How the results depend on the processing

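Over the 7 summary results, 53 alternatives were computed, of which 40 stayed close to the value reported and 13 moved (close means a share inside the 95% interval of the value reported, a median within 1 SD of the pools, or a count within 1.5 times). The count of genes with a 5' peak was 7 in every list and window, and 6 when only peaks at or above the median fold were kept. The count with an internal peak only was 1 throughout, but the gene was not always Myom3. At or above the median fold of 4.55, the internal peak of Myom3 (fold 4.24) was dropped. There Nebl was counted in its place, since its 5' peak (fold 3.24) was dropped and its internal peak (fold 6.67) was kept. Leaving out a pool means using the list of the other. It gave 7 to 7 genes with a 5' peak, 1 to 1 with an internal peak only, 102 to 112 peaks, a median acetylated length of 8.17 kb to 13.0 kb, 58.9% to 91.2% of peaks in both pools (91.2% for the list of pool 1), 22.3% to 26.5% at a TSS of another gene and 14.3% to 15.0% with MEF2. With peaks at or above the median fold there were 57 peaks, 98.2% in both pools and 38.6% at a TSS of another gene. Flanks of 10 kb left 75 peaks, a median of 4.33 kb and 8.0% at another gene. The gene body alone left 62 peaks, 4.01 kb, 58.1% in both pools and 6.45% at another gene. An overlap of 50% of both peaks put 41.0% in both pools. A motif window of 200 bp put MEF2 in 6.45%. Of 45 alternatives for the acetylated length of a single gene, 42 moved it by less than the SD of its 2 pools, which is a wide tolerance, and 5 moved it by over 1.5 times. Those 5 were Ttn with 15.6 kb, Neb with 2.55 kb and Nebl with 1.98 kb at or above the median fold, and Neb with 2.55 kb and Nebl with 1.77 kb in the list of pool 1. The 3 beyond the SD were Myom1 with 26.5 kb and Myom2 with 6.64 kb at or above the median fold, and Myom3 with 16.8 kb in pool 2. No paired analysis was possible because the series has 1 group. Unknown depth limits what the absence of a peak at Neb and Myom3 shows.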

Other observations

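The starts of these genes differed in base composition. The ratio of observed to expected CpG in the 500 bp on both sides of the 5' end was 0.834 at the shared Myom1 start, 0.672 at Nebl and 0.639 at Obsl1, above the median of 0.552 over all protein-coding genes. It was 0.378 at Ttn, 0.328 at Neb, 0.296 at Nrap, 0.211 at Myom3, 0.158 at Mybpc3 and 0.0470 at Myom2. Within genes, the start of the long Myom1 transcripts had 0.344 and the internal Nebl-202 start 0.192. In Nebl the weaker 5' peak thus stood at the CpG-richer start and the stronger one at the CpG-poorer start, and in Myom1 the order was the other way round. Among the starts with a low ratio, Ttn, Nrap and Mybpc3 had wide 5' peaks in the replicated list, although the strongest at Mybpc3 was 638 bp in pool 1. Myom2, with the lowest ratio, had a strongest 5' peak of 693 bp in the replicated list and 4193 bp in pool 2. Neb and Myom3 had none.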
